A study of Mus musculus with 9 samples.

Results

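Crtc2, the coactivator that carries cAMP and fasting signals to the transcription factor CREB, was followed in mouse kidney at 2 ages together with the genes for making glucose: Creb1, Foxo1, Pck1, Pck2, G6pc, Fbp1, Pcx and Slc37a4. Crtc2 was selected by its fall between the 2 ages in these same libraries, so its values are given as a description with no test. The other 8 genes were listed by symbol for their known place in the pathway. All 9 symbols were found among the 13081 genes of the table. Whole kidneys came from wild type C57BL/6 mice aged 3 months (young, 4 libraries) or 16 months (old, 5 libraries), with no transgene or treatment in either group. The sources used here give no feeding state or time of day for these kidneys. RNA was converted to libraries that read the 3' ends of polyadenylated transcripts. Library titles carry 2 prefixes, of which 0 cover both ages, so whatever the prefix stands for and age cannot be told apart.

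The libraries held 4486406 to 6355095 reads over the listed genes. Values are read counts divided by 1 size factor per library, called normalised counts, and 1 read was worth about 1 normalised count (0.819 in the deepest library). Of 12667 genes tested, 59.7% passed an adjusted p under 0.05 in limma, with 29.2% higher and 30.5% lower in old kidneys. Mitochondrial genes took 27.0 to 29.8% of the reads in young libraries and 35.8 to 38.1% in old ones. With those genes left out and the rest scaled to equal totals, the median change of all genes rose by 0.14 on the log2 scale, so every change given here would sit about that much higher. Under that scaling 4472 genes were called higher and 3173 lower, so 58.5% of calls were higher against 48.9% without it. Y-linked genes were counted in every library of both groups.

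Gluconeogenesis makes glucose from lactate, glutamine, glycerol and other non-sugar precursors. The liver and the kidney cortex are the main sites, and in the kidney the pathway runs in the proximal tubule. Glucagon, parathyroid hormone and other hormones raise cAMP, which activates protein kinase A. The kinase phosphorylates CREB and restrains the salt-inducible kinases, which otherwise hold CRTC2 in the cytoplasm. Dephosphorylated CRTC2 enters the nucleus and joins CREB on cAMP response elements. In the liver, Pck1, G6pc and Ppargc1a are well known targets of this complex. FOXO1 acts on some of the same genes and is restrained by insulin through AKT.

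Promoter windows were read from RefSeq (GRCm38.p6), from 250 bases before to 50 bases after each annotated start, for 8 of the 9 genes (11 windows, since Pcx and Slc37a4 have several starts). They were searched on both strands for the full cAMP response element TGACGTCA, for its 5-base core, for a forkhead element and for the core of insulin response elements. The 5-base core is TGACG, which reads as CGTCA on the opposite strand. The forkhead element is written TGTTTAC here. The insulin response core is TGTTTTG. A full element contains the core. The core of the cAMP response element was present for 2 of the 8 genes, Pck1 and Slc37a4. The same 5 letters occurred in 20.8% of all 32851 windows, a share per window and not per gene, and Slc37a4 has 3 windows. Another window of Slc37a4 also holds CGTCA from -82 to -78. The insulin response core was present for Pck2 and G6pc and in 6.28% of all windows. Neither the full cAMP response element (1.79% of all windows) nor the forkhead letters (3.65%) occurred in any of the 11 windows. A match describes the letters and not binding. Only exact letters were searched, so other forms of these elements would be missed. A gene without a match, such as G6pc for the cAMP response element, is not shown to lack one. The windows of Pck1 and Slc37a4 are printed because they hold the CREB core, and that of G6pc because it is 1 of the 3 genes that were higher in old kidneys. All are on the + strand, and the capitals mark the motif. The Pck1 window is chr2:173152823-173153122, with CGTCA from -90 to -86. The Slc37a4 window is the first of its 3, chr9:44396696-44396995, with TGACG from -61 to -57. The G6pc window is chr11:101367466-101367765, with TGTTTTG from -174 to -168.
Pck1: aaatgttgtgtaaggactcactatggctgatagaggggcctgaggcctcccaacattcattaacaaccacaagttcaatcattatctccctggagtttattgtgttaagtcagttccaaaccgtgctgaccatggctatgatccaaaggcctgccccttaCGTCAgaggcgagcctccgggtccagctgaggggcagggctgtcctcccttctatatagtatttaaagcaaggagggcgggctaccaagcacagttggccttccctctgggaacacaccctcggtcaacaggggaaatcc
Slc37a4: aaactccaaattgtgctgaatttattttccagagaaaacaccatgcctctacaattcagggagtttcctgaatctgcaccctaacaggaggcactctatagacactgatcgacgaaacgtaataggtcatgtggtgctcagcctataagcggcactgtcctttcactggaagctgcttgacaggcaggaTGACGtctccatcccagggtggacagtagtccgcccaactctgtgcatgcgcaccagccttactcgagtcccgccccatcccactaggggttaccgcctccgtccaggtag
G6pc: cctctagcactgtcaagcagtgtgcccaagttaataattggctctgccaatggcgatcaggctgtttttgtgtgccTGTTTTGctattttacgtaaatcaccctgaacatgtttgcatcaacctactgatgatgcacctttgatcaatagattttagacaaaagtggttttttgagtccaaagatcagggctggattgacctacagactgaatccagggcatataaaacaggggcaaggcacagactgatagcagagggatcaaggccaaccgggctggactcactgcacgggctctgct

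Crtc2 (ENSMUSG00000027936.18, chr3:90254163-90264125, + strand, GRCm38, GENCODE vM21) was close to absent from the old libraries. The young libraries held 250.6, 285, 256 and 244 normalised counts, a mean of 259 ± 17.8 (SD, n = 4). The old libraries held 5.89, 3.28, 4.06, 0 and 2.12, a mean of 3.07 ± 2.20 (SD, n = 5). Every old library lay far below every young one. In a bulk sample, fewer cells of a type and less RNA per cell cannot be told apart. As reads, the young libraries held 306, 293, 261 and 270 for Crtc2, 1130 in all, and the old libraries 5, 3, 4, 0 and 2, 14 in all. Relative to the summed size factors of each group, the young libraries held 87.9 times as many reads. The library with 0 reads allows up to 3 reads. On the log2(normalised count + 1) scale the difference was -6.25, the largest fall among the 12667 genes tested. Crtc2 passed the filter on low values only through its 4 young libraries.

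**Figure D1:**
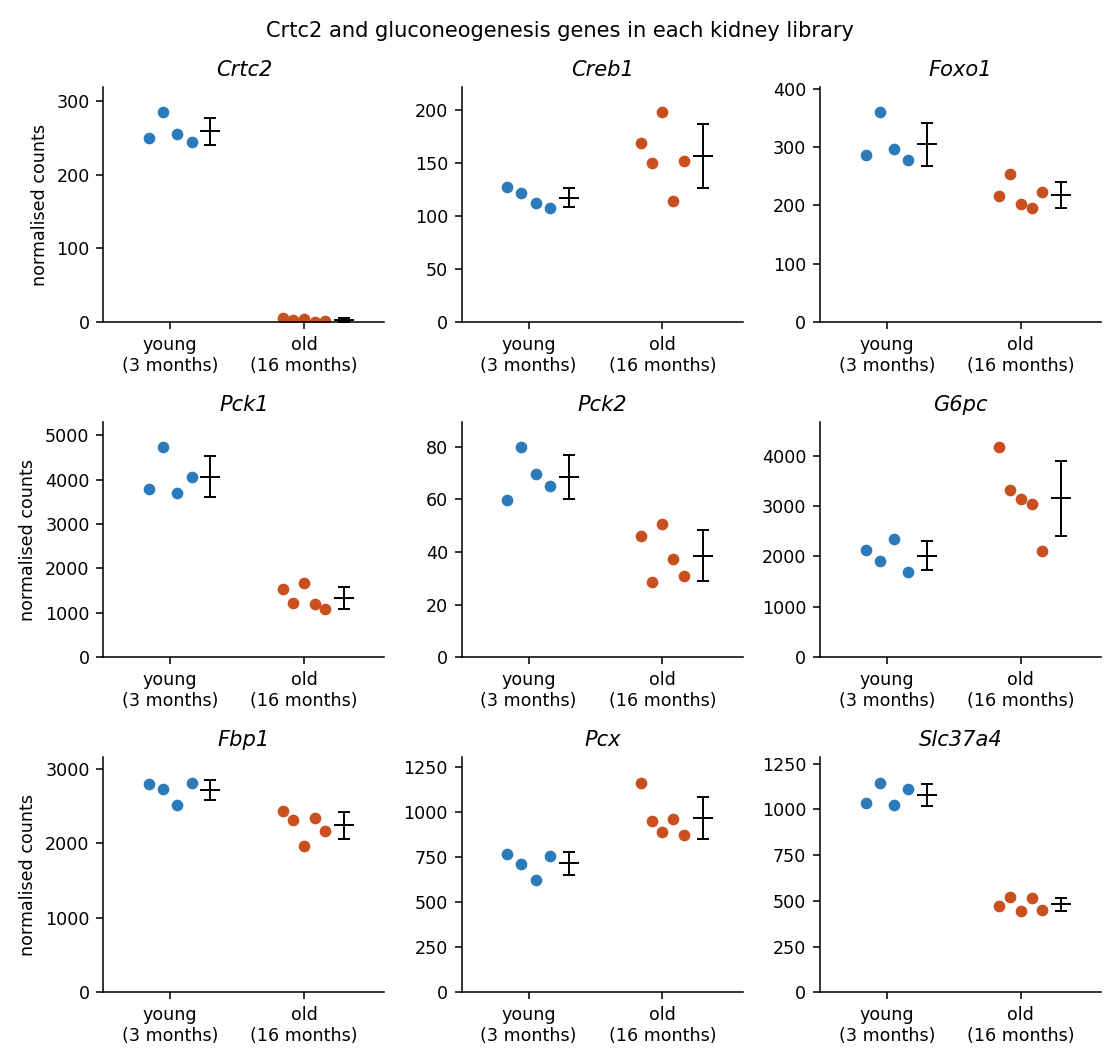
Normalised counts of Crtc2 and of the 8 other genes in each library, on an axis of its own per gene, with points for libraries and bars for the group mean and SD (young n = 4, old n = 5). Crtc2 lies between 244 and 285 in young and between 0 and 5.89 in old kidneys, while G6pc and Pcx have higher means in old kidneys and Pck1 and Slc37a4 lower ones.

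The 3 table genes nearest to Crtc2 on either side on chromosome 3 did not share a fall of that size. Slc39a1, a zinc transporter gene that ends 550 bases upstream, had 626 ± 24.1 normalised counts in young and 405 ± 77.9 in old kidneys, a log2 change of -0.65 (SE 0.12, adjusted p = 1.29e-04, limma). Jtb, the next table gene upstream at 18324 bases, changed by -0.65 (SE 0.10, adjusted p = 1.36e-05, limma), from 340.0 ± 9.24 to 216 ± 7.62. Rab13, a small GTPase gene farther out, changed by -0.14 and did not pass (adjusted p = 0.646, limma). Downstream, Dennd4b begins 1059 bases past the end of Crtc2 and changed by -0.18 (adjusted p = 0.665, limma) at a low level, 18.0 ± 3.33 in young and 17.0 ± 7.26 in old kidneys. Gatad2b, which encodes a subunit of the NuRD chromatin complex, rose by 0.64 (SE 0.10, adjusted p = 2.88e-05, limma). Gm45477 rose from 2.58 ± 2.01 to 17.4 ± 5.66, a log2 change of 2.50 (1.57 with a pseudocount of 5). That transcript lies within Gatad2b on the same strand, so its reads may belong to either gene. With the trend of change on transcript length removed, a setting chosen after the data were seen, Jtb changed by -0.28 (adjusted p = 0.0207, limma) and Gatad2b by 0.26 (adjusted p = 0.0254, limma).

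The 2 paralogs of Crtc2, which encode coactivators of the same family, were measured at both ages. Crtc3 held 90.9, 109, 119.6 and 101 normalised counts in young and 117, 136, 116, 137 and 167 in old libraries, and the ranges overlapped. Its change was 0.34 (SE 0.14, adjusted p = 0.0440, limma), and the call was lost without old replicate 2, 4 or 5 (adjusted p = 0.0602, 0.0716 and 0.112), without young replicate 1, 2 or 4 (0.143, 0.0661 and 0.0900), with reads scaled to the table total (0.0833), and with the length trend removed (0.18, adjusted p = 0.291). Crtc1 had 37.1 ± 4.08 in young and 46.2 ± 8.15 in old kidneys, a difference of 0.30 with a 95% interval of -0.11 to 0.71 (adjusted p = 0.196, limma), and -0.23 with the length trend removed.

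**Figure D2:**
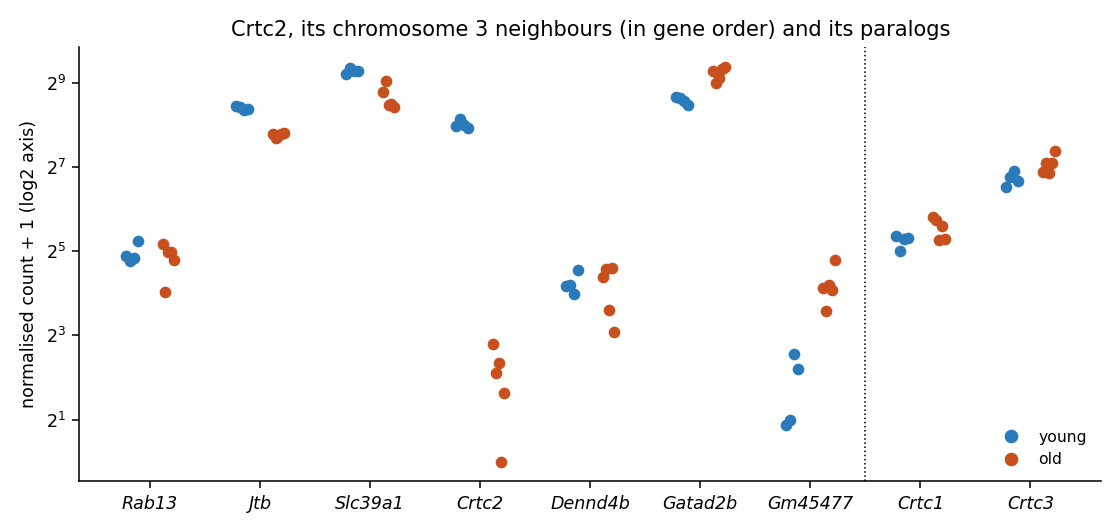
Normalised count + 1 in each library, on a log2 axis, of Crtc2, of the 3 table genes nearest to it on either side in map order and, right of the dotted line, of its paralogs Crtc1 and Crtc3 (points for libraries, young n = 4, old n = 5). Crtc2 drops to between 0 and 5.89 normalised counts in old kidneys, while Slc39a1 and Jtb shift by -0.65 on the log2 scale and both paralogs have overlapping ranges.

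The profiles most like that of Crtc2 over the 9 libraries were sought by the root mean square difference of centred log2 values. Among 8150 genes averaging 50 or more normalised counts, the closest 5 were Ost4 (0.814), Gm6300 (0.954), Apba3 (0.965), Ctnnd1 (1.03) and Mrps28 (1.06). Ost4 encodes a small subunit of the oligosaccharyltransferase, and it went from 954 ± 35.7 to 25.3 ± 6.73 normalised counts. Ctnnd1 encodes p120 catenin, which binds cadherins, and went from 454 ± 14.0 to 16.5 ± 10.8. Mrps28, a mitochondrial ribosome subunit gene, went from 172 ± 3.47 to 3.72 ± 1.89. All 5 had fewer counts in every old library than in any young one, which the choice by likeness to Crtc2 favours, so no test is given.

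All 8 other genes passed the test, 3 higher and 5 lower in old kidneys, against 59.7% of all genes tested (29.2% higher, 30.5% lower). The ranges of the 2 groups were apart for 6 of the 8, against 49.0% of all genes. Their median log2 change was -0.38, beside -0.003 for all genes tested. Pck1, Slc37a4, Pck2, Foxo1 and Fbp1 were lower in old kidneys and G6pc, Pcx and Creb1 were higher, so the genes of the pathway did not move in 1 direction with Crtc2. With so many genes called, a call by itself does not set a gene apart from the table.

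**Figure D3:**
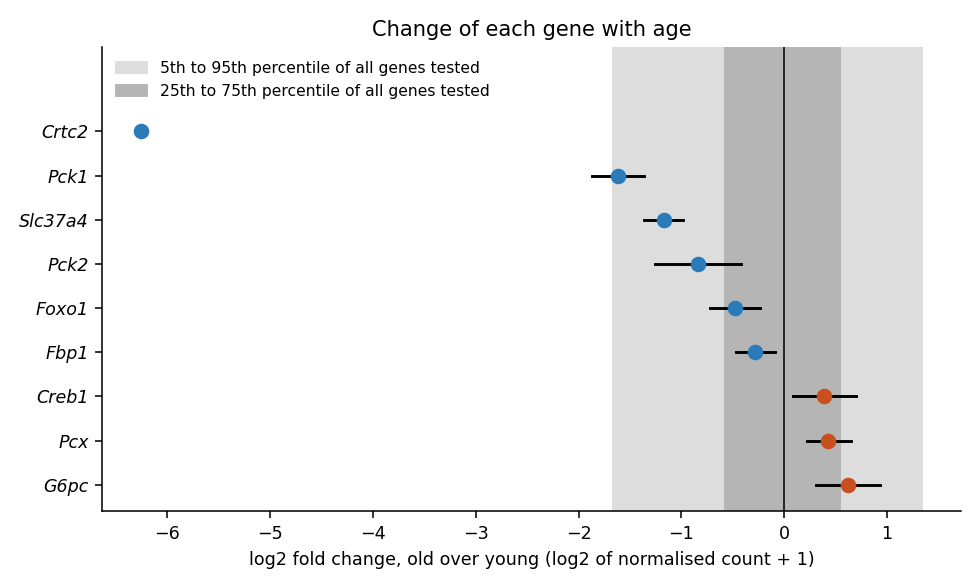
Log2 change, old over young, of Crtc2 and the 8 other genes, with 95% intervals as lines (none for Crtc2) and shaded bands for the 25th to 75th and 5th to 95th percentiles of all genes tested. Crtc2 stands at -6.25, Pck1 and Slc37a4 lie at -1.62 and -1.17, and G6pc, Pcx and Creb1 lie at 0.62, 0.43 and 0.39.

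The 2 listed transcription factors moved in opposite directions. Creb1, the partner of CRTC2 on DNA (ENSMUSG00000025958.14), held 128, 122, 113 and 108 normalised counts in young libraries and 169, 149.9, 198, 115 and 152 in old ones. Old replicate 4 fell within the young range and the other 4 lay above it. The change was 0.39 (SE 0.15, adjusted p = 0.0272, limma), and it was lost without old replicate 1 or 3 (adjusted p = 0.0585 and 0.0764), without young replicate 3 or 4 (0.0657 and 0.0751) and with reads scaled to the table total (0.0738). With the length trend removed it became -0.04 (adjusted p = 0.824, limma).

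Foxo1, the forkhead factor that insulin restrains (ENSMUSG00000044167.6), held 286, 359, 296 and 279 normalised counts in young and 216, 254, 203, 195 and 224 in old libraries. Every old library was below every young one. The change was -0.48 (SE 0.12, adjusted p = 0.00152, limma), a 1.39-fold fall, and -0.93 with the length trend removed (adjusted p = 3.20e-06, limma).

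Pcx and Pck1 run the first committed steps, from pyruvate to phosphoenolpyruvate. Pcx, pyruvate carboxylase of the mitochondria (ENSMUSG00000024892.17, chr19:4510472-4621752, + strand), held 769, 710.3, 625 and 753 normalised counts in young libraries. In old libraries it held 1162, 951, 889, 959 and 869.9, all above the young range. The rise was 0.43 on the log2 scale (SE 0.10, adjusted p = 0.00136, limma), or 1.35-fold.

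Pck1, the cytosolic phosphoenolpyruvate carboxykinase (ENSMUSG00000027513.11, chr2:173153048-173159273, + strand), held 3777, 4722, 3708 and 4062 normalised counts in young libraries. In old libraries it held 1532, 1223, 1666, 1195 and 1075. The groups were far apart, the highest old value being less than the lowest young value. The log2 change was -1.62 (SE 0.12, adjusted p = 2.70e-09, limma), a 3.06-fold fall, and 5.50% of all genes tested fell by at least as much. Its window above holds CGTCA, as 20.8% of all windows hold the CREB core, and a link between that match and the change was not tested.

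Pck2, the mitochondrial form of the same enzyme (ENSMUSG00000040618.7), held 59.8, 79.7, 69.6 and 65.2 normalised counts in young and 46.0, 28.4, 50.7, 37.3 and 30.8 in old libraries. The ranges did not overlap. The change was -0.84 (SE 0.20, adjusted p = 0.00144, limma). Of the 50-base runs in the last 500 bases of its transcript, 16.6% also occur in another gene, so its level is uncertain to that extent.

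Fbp1, fructose-1,6-bisphosphatase, which reverses the phosphofructokinase step (ENSMUSG00000069805.10, chr13:62864753-62888282, - strand), held 2796, 2734, 2522 and 2816 normalised counts in young libraries. In old libraries it held 2433, 2307, 1968, 2346 and 2172. The highest old library stood just under the lowest young one. The change was -0.28 (SE 0.09, adjusted p = 0.0127, limma), and 25.9% of all genes tested changed by as little or less. It was -0.14 and no longer called with mitochondrial genes left out (adjusted p = 0.182), and 0.04 with the length trend removed (adjusted p = 0.726).

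G6pc and Slc37a4 form the last step, in which glucose is released from glucose-6-phosphate inside the endoplasmic reticulum, and they moved in opposite directions. G6pc, the catalytic subunit of the phosphatase (ENSMUSG00000078650.2, chr11:101367561-101377903, + strand), held 2119, 1901, 2352 and 1694 normalised counts in young libraries. In old libraries it held 4161, 3311, 3144, 3031 and 2102. Old replicate 5 lay within the young range and the other 4 above it. The rise was 0.62 (SE 0.15, adjusted p = 0.00130, limma), or 1.54-fold, and 21.6% of all genes tested rose by at least as much.

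Slc37a4, the translocase that carries glucose-6-phosphate into the reticulum (ENSMUSG00000032114.9, chr9:44396852-44402968, + strand), held 1037, 1147, 1023 and 1113 normalised counts in young libraries. In old libraries it held 473, 522, 443, 516 and 449. The spread within either age was small beside the gap between them. The change was -1.17 (SE 0.09, adjusted p = 4.76e-09, limma), a 2.25-fold fall, and 10.9% of all genes tested fell by at least as much. It is the other gene whose window holds the CREB core, and a link to the change was not tested here either.

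Since a ratio of 2 genes within a library does not depend on how the library was scaled, the opposite changes were also read that way. Only the change of a ratio with age is read, not its size. G6pc over Pck1 was 0.561, 0.402, 0.634 and 0.417 in young and 2.71, 2.71, 1.89, 2.54 and 1.96 in old libraries. The groups were apart by 2.24 on the log2 scale. G6pc over Slc37a4 ranged from 1.52 to 2.30 in young and from 4.68 to 8.80 in old libraries, a log2 difference of 1.79. Pcx over Pck1 ranged from 0.1504 to 0.2036 and from 0.534 to 0.809. For Fbp1 over Pck1 the ranges were 0.579 to 0.740 and 1.18 to 2.02. These ratios did not overlap between the ages. Pck1 over Pck2 was lower in old kidneys (53.3 to 63.2 in young, 32.0 to 43.0 in old), and Slc37a4 over Pck1 overlapped (0.243 to 0.276 and 0.266 to 0.432).

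**Figure D4:**
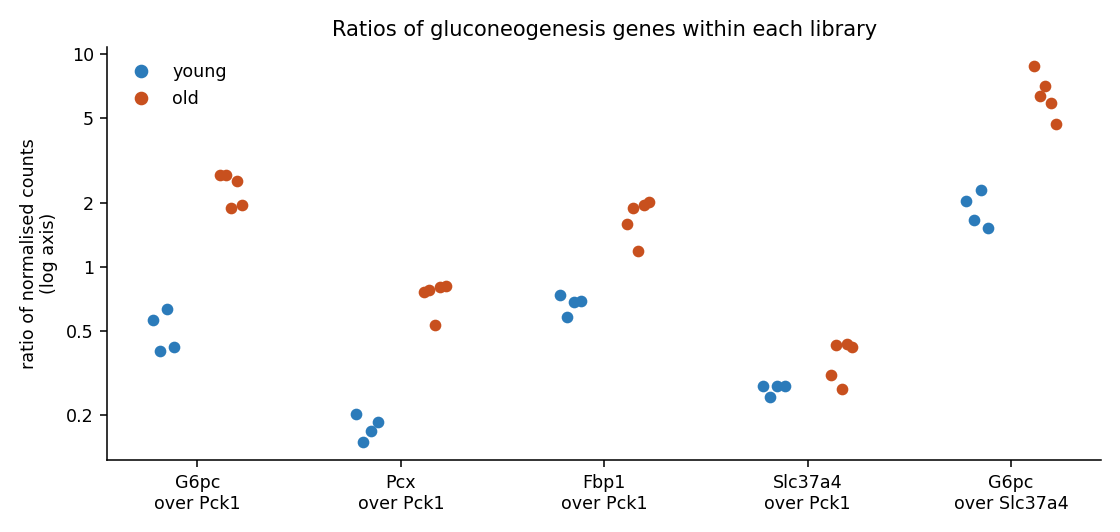
Ratios of normalised counts of pairs of gluconeogenesis genes within each library on a log axis, with points for libraries of each age. G6pc over Pck1 lies between 0.402 and 0.634 in young and between 1.89 and 2.71 in old kidneys, and Slc37a4 over Pck1 is the pair whose ranges overlap.

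Further genes of the CREB pathway were taken from a list set by role. Of its 32 genes, 19 were called, 8 higher and 11 lower, with a median log2 change of -0.06, where 59.7% of all genes tested were called, 29.2% higher and 30.5% lower. The share called is near that of all genes. With mitochondrial genes left out the split was 9 higher and 8 lower. The list holds 5 kinases that phosphorylate CRTC proteins, the salt-inducible kinases and AMP-activated kinase subunits, and Stk11 (LKB1), which activates them, and of these 6 genes 4 were lower and 0 higher. They include Sik1, a salt-inducible kinase that is itself induced by CREB, which fell from 87.8 ± 9.61 to 52.6 ± 9.37 (log2 change -0.74, SE 0.17, adjusted p = 0.00102, limma). The calcineurin subunits, a phosphatase that acts on CRTC2, gave 2 lower of 3. Protein kinase A subunits gave 3 higher and 2 lower of 6. Of the catalytic subunits, Prkacb rose by 0.96 (adjusted p = 2.20e-07, limma) and Prkaca fell by 0.93 (adjusted p = 1.39e-04, limma). Of the regulatory subunits, Prkar1a fell by 0.78 (adjusted p = 7.27e-06, limma) and Prkar2a rose by 0.72 (adjusted p = 7.81e-06, limma), so each kind moved both ways.

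Upstream of the kinase, Pth1r, the parathyroid hormone receptor of the proximal tubule, fell from 4416 ± 143 to 1832 ± 278 normalised counts (log2 change -1.28, SE 0.11, adjusted p = 9.25e-09, limma). Every old library was below every young one. Downstream, Ep300, an acetyltransferase that works with CREB and CRTC2, rose from 195 ± 20.3 to 434 ± 45.7 (log2 change 1.15, adjusted p = 8.40e-08, limma), or by 0.65 with the length trend removed (adjusted p = 7.14e-05, limma). Of the family members besides Creb1, Crem fell by 0.81 (adjusted p = 0.0317, limma), and Atf1, Atf2, Atf4, Creb3 and Creb3l2 did not pass the test, where 59.7% of all genes tested were called.

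Other known CREB targets moved both ways. Of 19 genes listed, 14 were in the table and 13 were tested, of which 2 rose and 4 fell, beside 59.7% called over all genes tested (3 and 3 with mitochondrial genes left out). Egr1 and Pde4d rose, Egr1, an immediate early factor, by 1.0 (SE 0.24, adjusted p = 0.00150, limma) and Pde4d, a cAMP phosphodiesterase, by 0.96 (SE 0.18, adjusted p = 1.82e-04, limma). Junb, an AP-1 factor, fell by 1.14 (SE 0.26, adjusted p = 0.00101, limma), with overlapping ranges. The other falls were Cyp24a1 (-1.29), Crem (-0.81) and Sik1 (-0.74), and Crem and Sik1 are also in the CREB pathway list. Fos was too low to be tested, at 1.15 ± 1.71 normalised counts in young and 13.85 ± 13.84 in old kidneys. Nr4a1, a nuclear receptor gene that CREB induces, was not among the genes of the table.

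Regulators of gluconeogenesis other than CREB were called for 16 of 25 genes, 9 higher and 7 lower, beside 59.7% of all genes tested, with a median log2 change of 0.17. The split became 13 and 5 with mitochondrial genes left out, and 6 and 8 with the length trend removed. Ppargc1a, the coactivator PGC-1 alpha and a CREB target in the liver, had 287 ± 30.4 in young and 321 ± 28.2 normalised counts in old kidneys. Its change was 0.17 with a 95% interval of -0.06 to 0.39 (adjusted p = 0.201, limma), and 0.31 with mitochondrial genes left out (adjusted p = 0.0258, limma), but -0.13 with the length trend removed. Hnf4a, a nuclear receptor that drives tubule and liver metabolic genes, fell by 0.93 (SE 0.10, adjusted p = 2.39e-07, limma). Nr3c1, the glucocorticoid receptor, rose by 0.91 (SE 0.10, adjusted p = 4.71e-07, limma).

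Larger changes stood elsewhere in that list. Ppara, the fatty acid receptor that acts in fasting, rose from 147 ± 17.8 to 743 ± 79.3 (log2 change 2.33, SE 0.11, adjusted p = 7.73e-12, limma). Prmt1, an arginine methyltransferase, rose by 2.06 (adjusted p = 1.44e-08, limma). Esrra, the estrogen-related receptor alpha, fell by 1.59 (adjusted p = 2.02e-08, limma). Akt1, which phosphorylates FOXO1 in insulin signalling, fell from 419 ± 31.1 to 144 ± 24.6 (log2 change -1.54, adjusted p = 6.18e-09, limma).

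**Figure D5:**
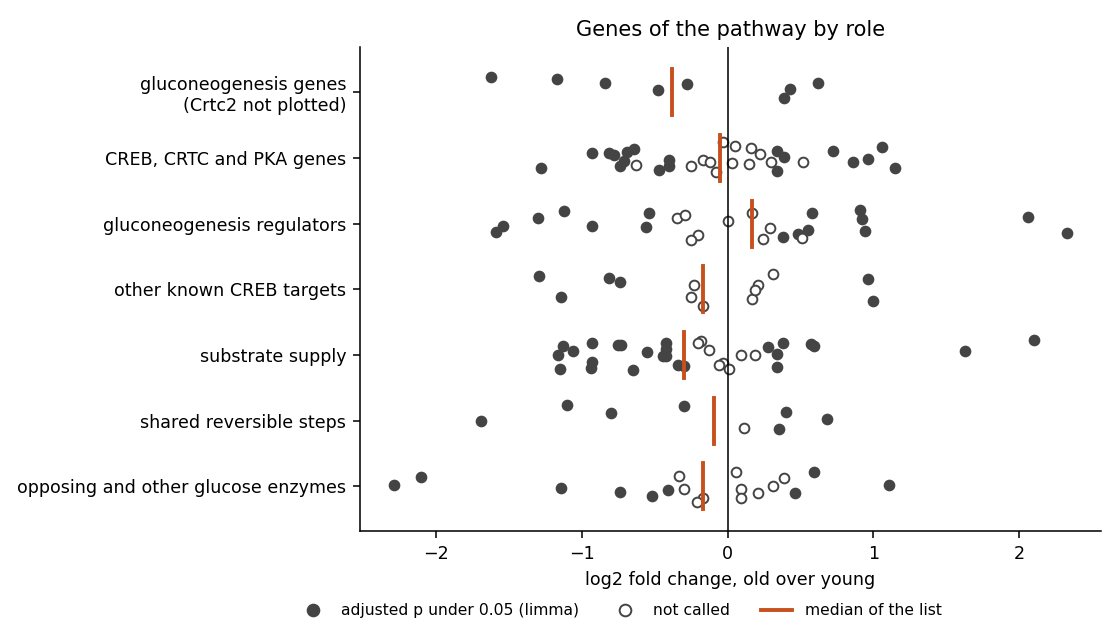
Log2 change of each tested gene in 7 lists, the gluconeogenesis genes without Crtc2 and 6 lists of related genes, with filled points for genes called and open ones for those not called, and a bar at the median of each list. Each list has genes on both sides of 0, from Ppara at 2.33 to G6pc3 at -2.29.

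Of 33 transporters and enzymes that supply precursors, 25 were called, 8 higher and 17 lower, beside 59.7% of all genes tested (29.2% higher, 30.5% lower), with a median of -0.30 (9 and 12 with mitochondrial genes left out). Both subunits of the mitochondrial pyruvate carrier fell, Mpc1 by 1.13 (adjusted p = 4.05e-09, limma) and Mpc2 by 1.06 (adjusted p = 2.56e-08, limma). With the length trend removed, Mpc1 changed by -0.74 (adjusted p = 4.70e-07, limma). For Mpc1, 26.4% of the end sequence is shared with other genes. Among the 8 genes for lactate and pyruvate, 2 rose and 5 fell. Lactate transporters of the cell surface moved both ways. Slc16a1, the monocarboxylate transporter MCT1, went from 129 ± 32.7 to 546 ± 65.7 (log2 change 2.10, adjusted p = 1.62e-09, limma). Slc5a12, a sodium-coupled lactate transporter of the proximal tubule brush border, went from 445 ± 81.0 to 1393 ± 334 (log2 change 1.63, adjusted p = 3.46e-08, limma). Slc5a8, another sodium-coupled monocarboxylate transporter, fell from 789.6 ± 86.6 to 409 ± 34.0 (log2 change -0.94, adjusted p = 2.65e-07, limma). Slc16a7, the transporter MCT2, did not pass (log2 change 0.09, adjusted p = 0.492, limma).

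Enzymes of the reversible steps shared with glycolysis were called for 7 of 8 genes, 3 higher and 4 lower, beside 59.7% of all genes tested, with a median of -0.09 (4 and 3 with mitochondrial genes left out or with the length trend removed). Gapdh fell by 1.69 (adjusted p = 1.16e-08, limma), although 35.0% of its end sequence occurs in other genes. Tpi1, triose phosphate isomerase, fell by 1.10 (adjusted p = 1.03e-07, limma). Gpi1 (24.6% shared end sequence) rose by 0.68 (adjusted p = 3.94e-06, limma) and Pgam1 by 0.40 (adjusted p = 0.00121, limma), or by 0.67 with the length trend removed (adjusted p = 7.89e-06, limma).

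A list of opposing kinases, isoenzymes of members, pyruvate dehydrogenase genes and glucose transporters had 9 of 19 genes called, 3 higher and 6 lower. That stood beside 59.7% of all genes tested, with a median of -0.17 (7 and 5 with mitochondrial genes left out). The 8 opposing kinases, of glycolysis and its control, gave 2 higher and 0 lower, so every fall lay in the other groups. G6pc3, the widely expressed isoenzyme of G6pc, fell from 386 ± 34.9 to 81.3 ± 26.7 (log2 change -2.29, SE 0.18, adjusted p = 4.63e-09, limma), opposite to G6pc. Slc2a1, the glucose transporter GLUT1, fell by 1.14 (adjusted p = 9.29e-07, limma). Slc2a2, the GLUT2 transporter through which glucose leaves proximal tubule cells, had 585 ± 48.3 and 624 ± 21.7 normalised counts, a difference of 0.09 with a 95% interval of -0.10 to 0.28 (adjusted p = 0.387, limma). With mitochondrial genes left out it was 0.24 (adjusted p = 0.0274, limma), and with the length trend removed -0.12. The kinases that switch off pyruvate dehydrogenase, and so spare pyruvate, moved both ways. Pdk2 rose by 1.11 (adjusted p = 6.48e-07, limma), whereas Pdk3 fell by 0.74 (adjusted p = 1.95e-05, limma) and Pdk4 fell by 2.10 (adjusted p = 7.68e-05, limma). Pkm, a pyruvate kinase, rose by 0.46 (adjusted p = 0.00141, limma).

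Markers of kidney cell types were counted in every library, although Nphs1, a podocyte gene, held only 8.74 to 15.7 normalised counts in young libraries. The 12 proximal tubule markers moved both ways, 4 higher and 6 lower, where 59.7% of all genes tested were called (29.2% higher, 30.5% lower). Their summed normalised counts ranged from 200847 to 235163 in young and from 143145 to 196902 in old libraries. Most of that sum came from Kap, the androgen-regulated kidney protein gene. Among tubule markers, the transporter genes Slc34a1 and Slc27a2 did not pass the test (adjusted p = 0.799 and 0.995, limma), whereas Lrp2, the endocytic receptor megalin, rose by 0.95 (adjusted p = 3.45e-07, limma). Slc5a12 (1.63), Miox (0.65) and Acsm2 (0.33) also rose. The 6 that fell were Slc22a6 (-1.26), Gatm (-1.24), Slc7a13 (-1.14), Kap (-0.69), Slc5a2 (-0.52) and Cubn (-0.37). The 9 loop and distal markers summed to between 12095 and 12892 in young and between 14945 and 18045 in old libraries. Umod, Slc12a1 and Slc12a3 make up most of that sum, and of the 9 markers 3 rose and 4 fell, with a median log2 change of -0.37. The 7 glomerular and endothelial markers, of which 4 rose and 1 fell, summed to between 1449 and 1576 and between 1480 and 1724. Summed immune markers were 769 to 934 in young and 1040 to 1447 in old libraries, and of the 4 tested 3 rose and 0 fell. Hepatocyte markers, from a tissue that makes glucose by the same enzymes, summed to between 698 and 1432 in young and between 288 and 696 in old libraries, but the sum is mostly Ttr on average (747 and 311 normalised counts). Of the 8 tested, Ttr fell, Trf and Fgb rose by 1.27 and 1.05 (adjusted p = 1.29e-05 and 0.0134, limma), and Alb stood at 15.1 ± 6.29 and 27.4 ± 15.3. Adipocyte markers varied widely within both ages, with sums of 273 to 1471 and 59.7 to 1199, and Adipoq, Plin1 and Cidec were at 0 in some library. Of 6 clock genes tested, 1 changed: Dbp fell by 1.30 (adjusted p = 0.00639, limma). The part of these cell type and clock differences in the changes of the gluconeogenesis genes was not tested.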

How the data were processed

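Kidney RNA from 4 young and 5 old wild type mice was read from transcript 3' ends. Per the labels and methods, the authors aligned reads with TopHat2 2.0.10 and Bowtie 1.0.0 to GRCm39, with SAMtools 0.1.19, counted them by strand with HTSeq 0.6.1 on GENCODE vM26 and normalised them with DESeq. What they deposited is a signal per gene, its reads divided by the size factor of the library. All values (100%, tolerance 0.01) were whole multiples of the smallest, so reads were recovered. The lowest gene mean was 4.49, so low genes had been removed before deposition by a rule not given in the sources used here. The kit version differs between the labels and the methods.

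Old was tested against young with limma 3.58.1 (R 4.3.3, two-sided, variance trend) on log2(normalised count + 1), which understates the change of low genes, for genes that reached 10 normalised counts in 4 or more libraries. P-values were adjusted over all genes tested (Benjamini-Hochberg), and called means an adjusted p under 0.05. The labels list each library as a separate sample, and p-values measure the spread between these libraries. Alternatives used edgeR 4.0.16 and DESeq2 1.42.0 on recovered reads, other pseudocounts, filters and scalings, and each library left out. The steps were checked on simulated counts. Gene positions come from GENCODE vM21 (GRCm38), matched by symbol, which is not the build of the files.

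Named genes were the 9 members, the 2 paralogs of Crtc2, 3 neighbours on either side, the 5 most similar profiles, 8 regulators and enzymes by name, and from each of 6 pathway lists the 2 largest rises and 2 largest falls by moderated t (called, mean of 50 or more). 1 gene that this rule names is not reported here. Marker genes, and the CREB family, Prkaca, Prkar2a, Slc5a8, Slc16a7, Pdk3, Pdk4, Fos and Cyp24a1, were picked after their values were seen. The members and lists were chosen with earlier results of these data known.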

Additional observations from a re-analysis of the deposited data

Results flagged for a closer look

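In 114 groups of 4 or 5 libraries checked for a library far from the rest (Dixon's gap ratio), 4 stood out, and chance alone would give 5.7, about 1 group in 20. For Ep300, young replicate 1 (165 normalised counts) lay below the others (201 to 209), with a gap ratio of 0.838. For Akt1, old replicate 2 (187) lay above the others, of which the lowest held 125, with a gap ratio of 0.718. The ratio of Pcx to Pck1 stood at 0.534 for old replicate 3, below 0.758 to 0.809 for the other 4, a gap ratio of 0.844. The ratio of Slc37a4 to Pck1 stood at 0.243 for young replicate 2, below 0.274 to 0.276 for the other 3, a gap ratio of 0.946.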

How the results depend on the processing

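Of 50 named genes followed through 20 alternatives, 9 of which left out 1 library each, 5 changed their call: Creb1, Fbp1, Crtc3, Ppargc1a and Slc2a2. Of the genes not called, Crtc1, Ppargc1a, Slc2a2, Rab13 and Dennd4b changed sign under at least 1 alternative. Creb1 became -0.04 and Fbp1 0.04 with the trend on transcript length removed, an alternative added after the data were seen because changes rose with length (Spearman rho 0.274 across 12455 genes, which are not independent). Where only genes averaging 100 or more normalised counts were tested, 4101 genes were called in place of 7568 and 1 other CREB target in place of 6, since fewer genes were tested. The log2 change of Crtc2 was -7.17 with a pseudocount of 0.1 and -5.08 with 5, which follows from its near-zero old counts. Without 1 library at a time, calls ranged from 6900 to 7626 over all genes and 7 to 8 for the 8 gluconeogenesis genes. They ranged from 15 to 19 for CREB pathway genes, 14 to 17 for regulators and 5 to 6 for CREB targets. For substrate supply the range was 23 to 25, for reversible steps 6 to 7, and for opposing and other glucose enzymes 8 to 11. The log2 change of Crtc2 ranged from -6.50 to -5.80. edgeR called 7649 genes and DESeq2 7532, and each called the same 8 gluconeogenesis genes as limma. No paired analysis was possible because the titles give the groups no shared replicate numbers. Depth limits Crtc2 in old kidneys, where no library held more than 5 of its reads.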
